A study of Mus musculus with 16 samples.

Results

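Etnppl and 9 enzymes of ethanolamine and choline phospholipid metabolism were measured in mouse retina with its retinal pigment epithelium (RPE), the pigmented cell layer behind the photoreceptors. The members were all non-control probes whose RefSeq accession belongs to Etnppl, Etnk1, Etnk2, Chka, Pcyt2, Cept1, Chpt1, Pisd, Pemt or Phospho1, which gave 16 of the 55681 probes on the array. Each of the 16 was well above background on all 16 arrays, so none was lost to the filter on dim probes, and all 10 genes were among the 19022 tested. Etnppl was chosen because it was much lower in mutant than in wild-type tissue at 1 month. That difference, and every comparison that uses the same 1-month arrays of Etnppl, is therefore a description without a test, and the 1-year genotype comparison of Etnppl sets other arrays against each other, although the model over all 16 arrays also draws its spread from the 1-month arrays. The other 9 genes were added for their place in the same metabolism.

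The study set nm3342 mutant mice, described by the submitters as a possible model of serous retinal detachment, against age-matched wild-type mice. The groups were mutant at 1 year of age, wild type at 1 year, mutant at 1 month and wild type at 1 month, with 4 samples and 1 single-colour array per sample in each. All carried the strain background C57Bl/6J and were labelled male. RNA came from both retinas and the RPE together. The labels name neither the mutated gene nor the cells it acts in, so the genotype labels could not be checked on a target, and they do not say whether the samples of a group were single animals or pools. Where samples are not separate animals, the p-values measure only the spread between these samples.

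Between 82.1% and 89.6% of spots were well above background on each array, and the 75th percentile of the signal was 603 to 993 intensity units. Markers of rods, RPE and Müller glia were all measured, with list means of 6.57 to 7.05, 2.55 to 3.63 and 3.15 to 3.79 log2 units above the array's 75th percentile. Some arrays stood apart. On 3 arrays labelled male Xist and Ddx3y had a female pattern, namely mutant 1 year replicate 1 and mutant 1 month replicates 2 and 3. Mutant 1 month replicate 4 had the lowest 75th percentile (603) and the highest share of spots well above background (89.6%). Its mean over a list of erythrocyte genes was 3.99, against -0.13 to 0.69 in the other mutants of that age. The 2 slides each held 2 arrays of each group, but genotype and row coincided on slide 2, with mutants in row 2 and wild types in row 1. Lens genes varied widely between arrays, with list means of -0.70 to 5.49 in mutants at 1 year, -2.65 to 1.77 in wild types at 1 year, 2.10 to 6.88 in mutants at 1 month and 5.22 to 5.85 in wild types at 1 month. The part of these in the results was not tested, except where a value without the arrays or within a slide is given.

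Phosphatidylethanolamine and phosphatidylcholine are the main phospholipids of cell membranes, and the stacked discs of photoreceptor outer segments are rich in phosphatidylethanolamine, which also reacts with free retinaldehyde in the visual cycle. In the Kennedy pathway, ethanolamine or choline is first phosphorylated, then joined to a nucleotide, then transferred to diacylglycerol. Phosphatidylethanolamine is also made from phosphatidylserine in mitochondria and by way of phosphoethanolamine that sphingolipid breakdown releases. Etnppl, ethanolamine-phosphate phospholyase, is a pyridoxal phosphate enzyme that takes phosphoethanolamine out of this supply by splitting it to acetaldehyde, ammonia and phosphate, and in the brain it is known as a gene of astrocytes.

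Promoter sequences are shown for the 3 members set apart by genotype at 1 month, namely Etnppl and Phospho1, whose 1-month difference passed the threshold, and Chka, whose 1-month groups did not overlap. They are RefSeq sequences of build GRCm38.p6, 5′ to 3′ along the gene's strand, running from 250 bases before an annotated start to 50 after it, and capitals mark every match to the motifs searched. RefSeq gave a window for 9 of the 10 members, Pcyt2 being the one without. For Etnppl the table holds 2 overlapping windows, chr3:130617198-130617497 and chr3:130617325-130617624 on the plus strand, and the second is printed. Phospho1 lies at chr11:95824250-95824549 (plus strand) and Chka at chr19:3851523-3851822 (plus strand).
Etnppl: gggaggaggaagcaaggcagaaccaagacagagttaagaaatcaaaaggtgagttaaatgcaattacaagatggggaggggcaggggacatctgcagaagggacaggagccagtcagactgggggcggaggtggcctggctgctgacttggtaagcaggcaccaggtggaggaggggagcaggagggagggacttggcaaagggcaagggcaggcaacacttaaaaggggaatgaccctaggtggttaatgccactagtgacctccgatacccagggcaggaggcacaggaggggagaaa
Phospho1: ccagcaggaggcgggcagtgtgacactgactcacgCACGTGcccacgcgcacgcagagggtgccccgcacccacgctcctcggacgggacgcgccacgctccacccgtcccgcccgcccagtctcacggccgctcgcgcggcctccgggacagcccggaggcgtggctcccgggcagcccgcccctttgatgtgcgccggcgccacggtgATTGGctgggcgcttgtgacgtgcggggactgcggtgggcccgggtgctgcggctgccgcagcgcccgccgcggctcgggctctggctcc
Chka: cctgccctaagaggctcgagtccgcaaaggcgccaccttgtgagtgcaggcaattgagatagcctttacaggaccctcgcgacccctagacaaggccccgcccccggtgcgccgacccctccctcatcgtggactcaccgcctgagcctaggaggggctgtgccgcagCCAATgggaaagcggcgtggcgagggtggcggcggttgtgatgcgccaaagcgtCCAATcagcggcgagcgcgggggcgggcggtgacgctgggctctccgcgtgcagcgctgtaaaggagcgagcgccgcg

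The motifs, searched on both strands, were the full palindromic glucocorticoid response element, the single site AGAACA, which the full element contains, the E-box CACGTG, the TATA box TATAAA, the CCAAT box CCAAT and the CRE TGACGTCA. Neither Etnppl window held any of these letters. The Phospho1 window held 1 E-box, at position 36, and 1 CCAAT box, at position 211, and the Chka window held CCAAT boxes at positions 169 and 223, counted from 1 at the 5′ end of the window. Of the 32851 promoter windows in the table, 7.15% hold the E-box, 37.4% the CCAAT box, 19% the single AGAACA site, 13.6% the TATA box, 1.79% the CRE and 0.00913% the full glucocorticoid element. These matches describe letters and not binding sites.

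Levels below are log2 processed signals minus the array's 75th percentile, so that 0 is that percentile, and signals of different probes are not compared. At 1 year Etnppl stood at 1.30, 1.08, 1.24 and 1.17 in the 4 mutant samples, against 1.78, 2.01, 2.34 and 1.51 in the 4 wild-type samples. All mutant samples lay below all wild-type samples, although the closest, mutant replicate 1 and wild-type replicate 4, were near each other. The means were 1.20 ± 0.09 in mutants and 1.91 ± 0.35 in wild types (SD, n = 4 each), a log2 difference of -0.71 ± 0.14 (SE) or 1.64-fold lower in mutants (limma adjusted p = 0.027 over 19022 genes). That SE comes from all 16 arrays, and a fit of the 8 arrays of 1 year alone gave an SE of 0.17 and an adjusted p of 0.149, so the difference was not called there. This was 1 of 10 members called lower at 1 year, where 0.247% of all genes tested were called lower and 0.867% were called in either direction. Etnppl lay apart between the 1-year groups as did 3.42% of all genes in this direction.

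The 1-year difference kept its direction within each slide but differed in size, at -1.01 on slide 1 and -0.41 on slide 2, with 2 arrays a group and adjusted p of 0.26 and 0.859. Without the 3 arrays of female pattern it was -0.74 (limma adjusted p = 0.106), and with the pattern as a covariate -0.72 (adjusted p = 0.0504). Leaving out 1 array at a time gave differences from -0.84 to -0.57 and adjusted p from 0.00496 to 0.0953. The call was lost without mutant 1-year replicate 1 (difference -0.74), replicate 2 (-0.67), replicate 3 (-0.73) or replicate 4 (-0.70), and without wild-type 1-year replicate 2 (-0.68) or replicate 3 (-0.57). Direction was thus the same in all 16 such fits, whereas the call was kept in 10 of them.

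At 1 month Etnppl stood at 0.73, 0.72, 0.48 and 0.59 in the mutant samples, against 2.52, 2.76, 2.52 and 2.75 in the wild-type samples. The groups were far apart, with means of 0.63 ± 0.12 in mutants and 2.64 ± 0.14 in wild types (SD, n = 4 each). The log2 difference was -2.01 ± 0.14 (SE), or 4.02-fold lower in mutants, and it was -1.99 on slide 1 and -2.03 on slide 2. Without the female-pattern arrays it was -1.98. In whole-tissue RNA, fewer cells of a type and less RNA per cell cannot be told apart.

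With age, Etnppl moved in opposite directions in mutants and wild types. In mutants the mean was 1.20 at 1 year and 0.63 at 1 month, a log2 change of 0.57 ± 0.14, with no overlap between the ages, as for 7.4% of all genes that were higher at 1 year. In wild types it was 1.91 at 1 year and 2.64 at 1 month, a change of -0.73 ± 0.14, again with no overlap, as for 9.74% of all genes that were lower at 1 year. The genotype difference at 1 year minus that at 1 month was 1.30 ± 0.20, in a comparison that called 0.405% of all genes, 0.142% as higher and 0.263% as lower. Ordered from the lowest, the groups were mutant at 1 month, mutant at 1 year, wild type at 1 year and wild type at 1 month, and no 2 neighbours in this order overlapped.

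**Figure D1:**
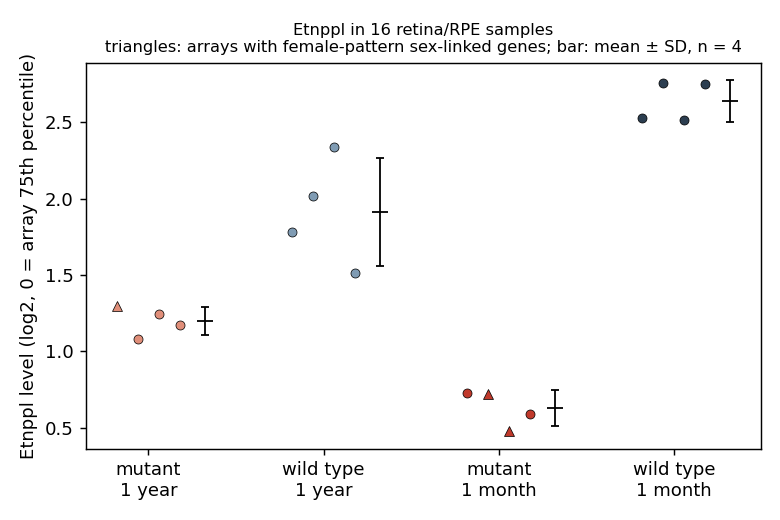
Etnppl level (vertical axis, log2 signal with 0 at the array's 75th percentile) in each sample of mutants and wild types at 1 year and at 1 month; triangles are the 3 arrays of female pattern and bars are mean ± SD of 4 samples. The mutant samples lie below the wild-type samples at both ages, between 1.08 and 1.30 against 1.51 to 2.34 at 1 year and between 0.48 and 0.73 against 2.52 to 2.76 at 1 month.

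Markers of the cells that could carry Etnppl were followed beside it. Of 8 astrocyte markers none was called in either genotype comparison, beside 0.867% of all genes at 1 year and 2.67% at 1 month. Their mean level was 1.07 to 1.15 in mutants and 0.91 to 1.24 in wild types at 1 year, and 0.85 to 1.15 in mutants and 1.02 to 1.37 in wild types at 1 month, overlapping at both ages. Gfap, the filament protein of astrocytes and reactive Müller glia, differed by 1.14 ± 0.26 at 1 year (limma adjusted p = 0.0578) and by -0.63 ± 0.26 at 1 month (adjusted p = 0.264), so neither passed the test.

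Of 12 Müller glia markers 1 was called higher in mutants at 1 year, Crym, and 2 at 1 month, Rlbp1 and Abca8a. Over all genes 0.62% were called higher at 1 year and 1.98% at 1 month. No Müller glia marker was called lower, beside 0.247% of all genes at 1 year and 0.689% at 1 month. Glul, glutamine synthetase, differed by -0.09 ± 0.10 at 1 year and 0.07 ± 0.10 at 1 month. The list mean was 3.56 to 3.79 in mutants and 3.37 to 3.53 in wild types at 1 year, and 3.33 to 3.55 in mutants and 3.15 to 3.48 in wild types at 1 month. The mutant range of this list lay above the wild-type range at 1 year and overlapped it at 1 month.

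Other cell types did move at 1 month. Higher in mutants were 6 of 11 RPE markers tested (median log2 difference 0.66), 4 of 7 fibroblast and matrix genes (1.17) and 4 of 8 microglia and macrophage markers (0.64), beside 1.98% of all genes called higher and a median over all genes of 0.02. The RPE list mean was 3.12 to 3.63 in mutants and 2.55 to 3.10 in wild types. The fibroblast list mean was 3.62 to 3.78 in mutants and 2.09 to 2.78 in wild types, and that of microglia was -0.63 to -0.46 in mutants and -1.29 to -1.11 in wild types. At 1 year none of the RPE and none of the fibroblast genes was called and 1 microglial gene was, Cx3cr1. Over all genes 0.62% were called higher and 0.247% lower at that age. Of the 11 RPE markers 7 had a negative and 4 a positive difference at 1 year (median -0.38). Their list mean was 2.85 to 3.35 in mutants and 3.15 to 3.52 in wild types, with overlap. All 8 lens genes had a positive difference at 1 year (median 1.88) and a negative one at 1 month (-1.03), none called. The rod list stood apart at 1 year, as Etnppl did: its mean was 6.57 to 6.77 in mutants and 6.84 to 6.95 in wild types, without overlap. Of the 10 rod markers 9 had a negative difference (median -0.25, beside -0.01 over all genes), and 1 was called lower, Gnat1, the rod transducin subunit (-0.33 ± 0.06, limma adjusted p = 0.0252). At 1 month no rod marker was called, and the list means overlapped at 6.77 to 7.05 in mutants and 6.82 to 6.98 in wild types. The part of these lists in the Etnppl differences was not tested.

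Cell lists also moved with age, beside the age changes of Etnppl. In mutants 4 of 7 fibroblast and matrix genes were called lower at 1 year (list median -1.01), as were 5 of 10 rod markers (-0.29), 2 of 11 RPE markers (-0.12) and 1 of 8 lens genes (-1.94), whereas 5 of 8 microglia and macrophage markers (0.80) and 3 of 12 Müller glia markers (0.12) were called higher. Over all genes 3.76% were called higher and 2.92% lower in mutants, with a median of -0.05. In wild types 3 of 7 fibroblast and matrix genes (0.50), 3 of 11 RPE markers (0.49), 6 of 8 microglia and macrophage markers (1.34) and 2 of 12 Müller glia markers (-0.0031) were called higher at 1 year. No rod marker was called there, 4 of 8 lens genes were called lower (-5.07), and 1 astrocyte marker was called in each direction. Of 8 bipolar cell markers 3 were called lower in wild types (-0.25), and none was called in mutants. The wild-type bipolar list mean was 3.17 to 3.35 at 1 year and 3.50 to 3.61 at 1 month, without overlap. Over all genes 7.28% were called higher and 5.09% lower in wild types, with a median of -0.03. The part of these lists in the age changes of Etnppl was not tested.

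The first enzymes of the ethanolamine branch were not called between genotypes. Etnk1, ethanolamine kinase, had a mean level of 0.70 ± 0.08 in mutants and 0.76 ± 0.18 in wild types at 1 year, and 0.68 ± 0.19 in mutants and 0.60 ± 0.22 in wild types at 1 month (SD, n = 4 each). Its genotype difference was -0.07 ± 0.12 at 1 year and 0.08 ± 0.12 at 1 month (SE), neither called, and all groups overlapped.

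Etnk2, the second ethanolamine kinase, was read by 2 probes that went opposite ways with age. Its leading probe (A_51_P238183, the one with the higher mean) stood at -0.51, -0.70, -0.52 and -0.34 in mutants at 1 year, against -1.22, -1.12, -0.98 and -1.08 in mutants at 1 month. In wild types it stood at -0.76, -0.94, -0.84 and -0.47 at 1 year, against -1.37, -1.30, -1.11 and -1.03 at 1 month. The ages did not overlap in either genotype, as for 7.4% of all genes in mutants and 9.13% in wild types in this direction. The rise was 0.58 ± 0.11 in mutants (limma adjusted p = 0.0059) and 0.45 ± 0.11 in wild types (adjusted p = 0.0165). The second probe (A_55_P1979019) gave -0.17 ± 0.21 in mutants and -0.47 ± 0.21 in wild types, not called (adjusted p = 0.73 and 0.22 in the fit over all probes, which called 2.78% of probes in mutants and 5.69% in wild types), and the mean of both probes turned the wild-type change to -0.01. The increase was therefore seen with 1 probe only, and which of the 2 probes reads the gene better was not tested. Without the female-pattern arrays the mutant change of the leading probe was 0.63 (adjusted p = 0.0958). The wild-type call was lost without wild-type 1-month replicate 1 (0.39) or replicate 2 (0.42), and with normexp background correction (0.33, adjusted p = 0.0536). Between genotypes the leading probe differed by 0.23 ± 0.11 at 1 year and 0.10 ± 0.11 at 1 month, neither called.

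Pcyt2, the enzyme that makes CDP-ethanolamine, the rate-limiting step of the ethanolamine branch, changed with age in wild types. It stood at 3.55, 3.49, 3.62 and 3.57 at 1 year, against 3.91, 3.83, 3.86 and 3.75 at 1 month, with no overlap. The change was -0.28 ± 0.07 (limma adjusted p = 0.0178), 1.21-fold lower at 1 year. It lost the call without wild-type 1-month replicate 1 (-0.25) or wild-type 1-year replicate 2 (-0.25), after quantile normalization (-0.25, adjusted p = 0.0878) and in the authors' deposited log2 matrix (-0.26, adjusted p = 0.0834). In mutants it stood at 3.59, 3.75, 3.68 and 3.71 at 1 year, against 3.79, 3.79, 3.67 and 3.95 at 1 month, a change of -0.12 ± 0.07 that was not called. Neither the genotype difference at 1 year (0.12 ± 0.07) nor that at 1 month (-0.03 ± 0.07) passed the test, and the difference between the genotype differences was not called (adjusted p = 0.663).

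Cept1, which transfers either head group to diacylglycerol, had means of 2.84 ± 0.09 in mutants and 2.77 ± 0.08 in wild types at 1 year, and 2.85 ± 0.13 in mutants and 2.70 ± 0.16 in wild types at 1 month (SD). Selenoi, the other ethanolamine phosphotransferase, differed by -0.02 ± 0.11 at 1 year and 0.03 ± 0.11 at 1 month. None of the 5 genes of the ethanolamine branch (Etnk1, Etnk2, Pcyt2, Selenoi and Cept1) was called between genotypes at either age. Over all genes 0.867% were called at 1 year and 2.67% at 1 month. The median difference of the branch was 0.06 at 1 year and 0.08 at 1 month, beside -0.01 and 0.02 over all genes.

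Chka, a kinase of choline and of ethanolamine, was read by 3 probes. The leading probe (A_51_P142923) stood at -0.81, -0.97, -0.85 and -0.75 in mutants at 1 month, against -0.69, -0.25, -0.45 and -0.55 in wild types at 1 month. The groups did not overlap, but the difference of -0.36 ± 0.12 was not called (limma adjusted p = 0.155), and without overlap in this direction were 2.7% of all genes. The other probes gave -0.22 ± 0.11 and -0.08 ± 0.15. At 1 year the 3 probes gave -0.08, -0.07 and -0.04, and their groups overlapped. In wild types the leading probe changed with age by -0.34 ± 0.12 (adjusted p = 0.0795), and it was called only without wild-type 1-year replicate 3 (-0.43, adjusted p = 0.0297).

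Chpt1, the choline phosphotransferase, had a leading-probe mean of -1.11 ± 0.19 in mutants and -1.24 ± 0.14 in wild types at 1 year, and -1.23 ± 0.13 in mutants and -1.28 ± 0.08 in wild types at 1 month (SD). Its genotype difference was 0.14 ± 0.10 at 1 year and 0.04 ± 0.10 at 1 month. Of the 6 choline branch genes (Chka, Chkb, Pcyt1a, Pcyt1b, Chpt1 and Cept1) none was called between genotypes, beside 0.867% of all genes at 1 year and 2.67% at 1 month. The 1-month groups of Chkb, the second choline kinase, did not overlap (-0.26 ± 0.07, limma adjusted p = 0.0734), as for 2.7% of all genes in this direction. Chkb was called lower with age in wild types, at -0.37 ± 0.07 (adjusted p = 0.00406).

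Pisd, which makes phosphatidylethanolamine from phosphatidylserine in mitochondria, stood at 1.84, 1.33, 1.79 and 1.43 in mutants and 1.44, 1.71, 1.56 and 1.49 in wild types at 1 year. At 1 month it stood at 1.04, 1.05, 1.54 and 1.46 in mutants and 1.68, 0.95, 1.26 and 1.21 in wild types. The groups overlapped throughout and no comparison was called. The mouse genome holds further copies of Pisd sequence, so its signal is uncertain. Ptdss2, a phosphatidylserine synthase, differed by -0.06 ± 0.11 at 1 year and by 0.41 ± 0.11 at 1 month (limma adjusted p = 0.055), neither called.

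Pemt, which methylates phosphatidylethanolamine to phosphatidylcholine, was read by 3 probes that did not agree. The leading probe (A_55_P1970860) stood at 0.57, 1.00, 0.56 and 0.98 in mutants and 0.71, 1.38, 1.08 and 1.26 in wild types at 1 year, and at 0.75, 0.58, 0.59 and 1.43 in mutants and 1.74, 1.29, 1.33 and 0.78 in wild types at 1 month. Both pairs of groups overlapped. The leading probe differed by -0.33 ± 0.23 at 1 year and -0.45 ± 0.23 at 1 month, against -0.06 and -0.05 at 1 year and 0.19 and 0.22 at 1 month for the other 2 probes. None of the 3 was called in the fit over all probes, which called 0.4% of probes at 1 year and 1.07% at 1 month.

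**Figure D2:**
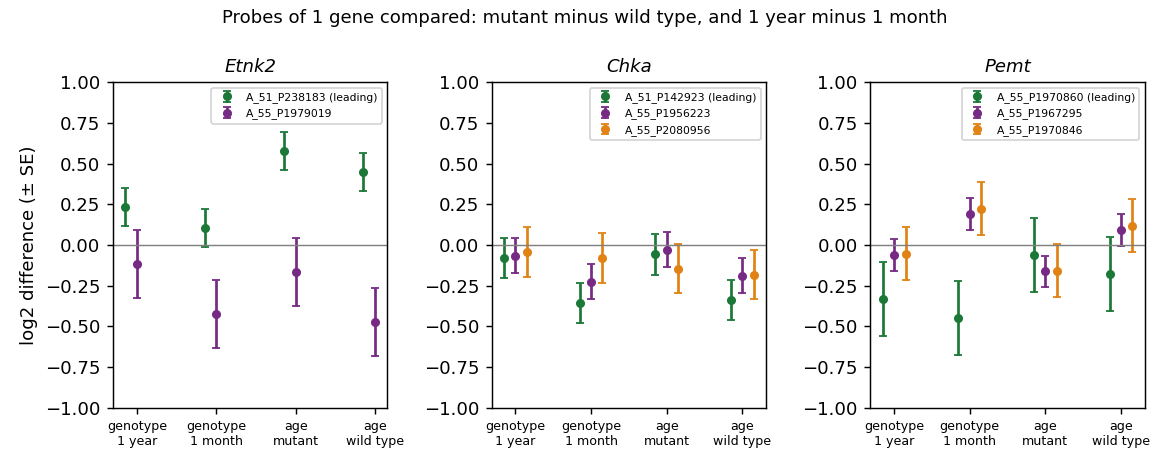
Log2 differences (vertical axis, ± SE) of each probe of Etnk2, Chka and Pemt, mutant minus wild type at 1 year and 1 month, and 1 year minus 1 month in mutants and wild types. The 2 Etnk2 probes lie on opposite sides of 0 in all 4 comparisons, the 3 Chka probes all lie below 0, and the leading Pemt probe lies below 0 at 1 month where the other 2 lie above it.

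Phospho1 is a phosphatase known to release phosphate from phosphoethanolamine and phosphocholine in mineralizing cartilage and bone, so that it draws on the same substrate as Etnppl. At 1 month it stood at -2.65, -2.80, -3.27 and -2.25 in mutants, against -1.33, -1.68, -1.65 and -2.35 in wild types. Wild-type replicate 4 lay below mutant replicate 4, so the groups overlapped. The difference was -0.99 ± 0.25, or 1.99-fold lower in mutants (limma adjusted p = 0.0483), which made Phospho1 the only member besides Etnppl called in this comparison. That is 2 of 10 members called lower at 1 month, beside 0.689% of all genes called lower and 2.67% called in either direction, shares from which nothing is read because Etnppl was chosen on this comparison.

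The Phospho1 call was close to the threshold. It was kept in 4 of the 16 fits that left out 1 array, those without mutant 1-month replicate 4, wild-type 1-month replicate 4, or wild-type 1-year replicate 2 or 3, and the 16 differences ran from -1.19 to -0.81. It was lost without the female-pattern arrays (-0.70, limma adjusted p = 0.414), which include the lowest mutant sample. Normexp background correction also lost the call (-0.69, adjusted p = 0.124). The probe was dim, with a mean level of -2.30. At 1 month the mean over 1160 olfactory receptor probes was -6.18, -6.04, -6.09 and -5.49 in mutants. In wild types it was -5.29, -5.75, -5.82 and -6.17. Replicate 4 was thus highest in mutants and lowest in wild types, as for Phospho1. The part of this in the Phospho1 difference was not tested. At 1 year Phospho1 stood at -2.85, -2.40, -2.22 and -2.54 in mutants, against -2.40, -1.77, -2.55 and -2.04 in wild types. These groups overlapped, and the difference of -0.31 ± 0.25 was not called (adjusted p = 0.709).

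**Figure D3:**
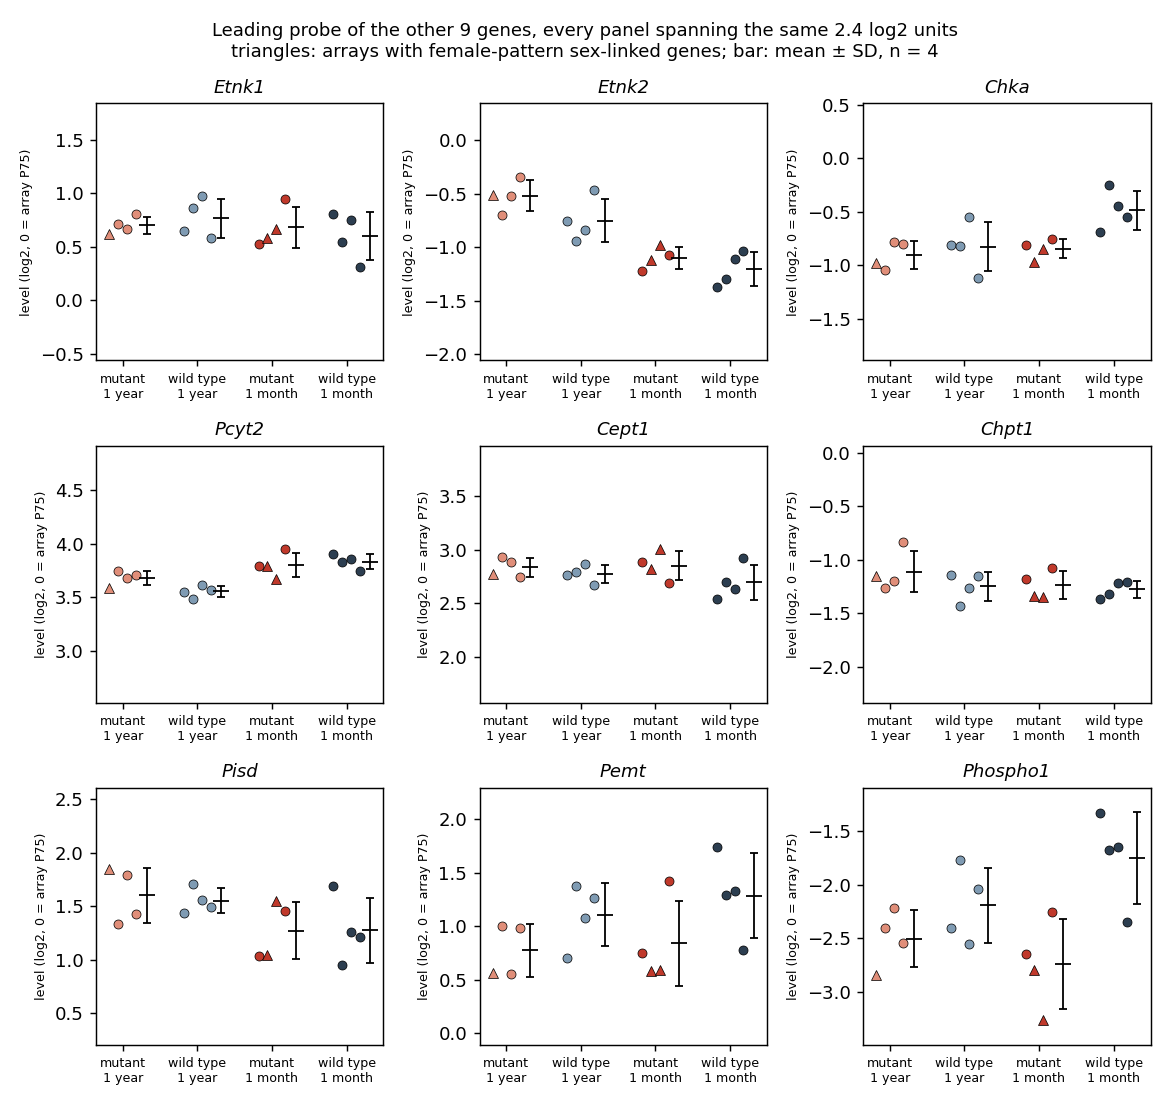
Level of the leading probe (vertical axis, log2 signal with 0 at the array's 75th percentile, P75, and the same span in each panel) of the 9 genes other than Etnppl in each sample of the 4 groups; triangles are arrays of female pattern and bars are mean ± SD of 4 samples. Etnk2 is higher at 1 year than at 1 month in both genotypes, Phospho1 is low in mutants at 1 month with 1 wild-type sample among them, and most other panels show overlapping groups.

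**Figure D4:**
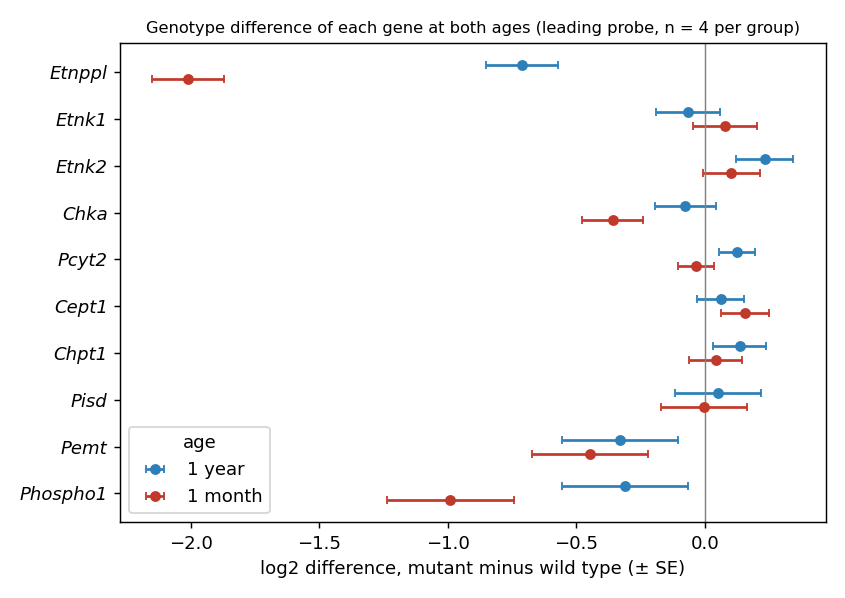
Log2 difference, mutant minus wild type (horizontal axis, ± SE of the model, 4 samples a group), of the leading probe of each of the 10 genes at 1 year and at 1 month. Etnppl stands at -0.71 at 1 year and -2.01 at 1 month and Phospho1 at -0.99 at 1 month, whereas the enzymes of the ethanolamine branch lie close to 0.

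Lists of the wider pathway were followed in the same comparisons. Of the 11 genes that use or supply phosphoethanolamine, Etnppl was called lower at 1 year, and Etnppl and Phospho1 at 1 month; none was called higher, beside 0.247% of all genes called lower at 1 year and 0.689% at 1 month. Nothing is read from the 1-month count, since Etnppl was chosen on that comparison. Phykpl, the closest relative of Etnppl, which acts on phosphohydroxylysine, differed by 0.20 ± 0.11 at 1 year and -0.05 ± 0.11 at 1 month, neither called. With age, Sgpl1, the lyase that frees phosphoethanolamine from sphingosine phosphate, rose by 0.32 ± 0.08 in mutants (limma adjusted p = 0.0371) and by 0.48 ± 0.08 in wild types (adjusted p = 0.00159). Sphk1, a sphingosine kinase one step before it, fell by 0.32 in wild types (adjusted p = 0.0415), and Pigg, which adds phosphoethanolamine to glycosylphosphatidylinositol anchors, rose by 0.40 ± 0.12 there (adjusted p = 0.0441).

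Among 12 genes of choline uptake and oxidation none was called between genotypes at 1 year, beside 0.867% of all genes. At 1 month 1 was called higher in mutants and 1 lower, beside 1.98% and 0.689% of all genes. Flvcr2, a choline transporter of endothelial cells, was higher by 0.82 ± 0.14 (limma adjusted p = 0.00632). Slc5a7, the choline transporter of cholinergic neurons, was lower, at -0.59 ± 0.14 (adjusted p = 0.0358). In wild types with age Flvcr2 rose by 0.55 ± 0.14, Aldh7a1, a betaine aldehyde dehydrogenase, rose by 0.51 ± 0.09, and Slc5a7 fell by 0.91, all with adjusted p of 0.0176 or less. No gene of this list was called with age in mutants, beside 6.68% of all genes. In wild types 12.4% of all genes were called.

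Of 15 genes of phospholipid breakdown none was called between genotypes at either age, beside 0.867% of all genes at 1 year and 2.67% at 1 month. Pla2g4a, cytosolic phospholipase A2, rose with age by 0.61 ± 0.16 in mutants and 1.20 ± 0.16 in wild types, and Pld2, a phospholipase D, by 0.38 ± 0.07 in mutants and 0.26 ± 0.07 in wild types (limma adjusted p of 0.0348 or less in each). Of 8 remodelling genes tested, the phosphatidate phosphatases Lpin1 and Lpin2 fell with age in mutants, by 0.40 and 0.35. In wild types they changed by -0.23 and -0.04, neither called, and the ages of Lpin1 did not overlap there. The difference between the genotype differences was not called for either gene (limma adjusted p = 0.698 and 0.415). None of the 2 plasmalogen synthesis genes tested was called. With age, 2 of 10 members were called higher in mutants (Etnppl and Etnk2) and none lower, beside 3.76% higher and 2.92% lower over all genes (6.68% in either direction). In wild types 1 was higher (Etnk2) and 2 were lower (Etnppl and Pcyt2), beside 7.28% higher and 5.09% lower (12.4% in either direction). Nothing is read from these counts for Etnppl, since both age comparisons use the 1-month arrays on which it was chosen.

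The genes whose levels followed Etnppl most closely over the 16 arrays were named by Pearson's r with its probe, given as a description without a test, since all 16 arrays share the 4 group means. Among 17818 genes with a usual symbol, the 6 highest were Per1 (r = 0.95), Fkbp5 (0.95), Folh1 (0.93), Prodh (0.91), Sult1a1 (0.90) and Rab37 (0.90). After the group means were removed, r was 0.66 for Per1, 0.70 for Fkbp5, 0.58 for Folh1 and 0.50 for Prodh, but 0.09 for Sult1a1 and 0.18 for Rab37. The 3 lowest were Cd248 (-0.94), Itgb8 (-0.93) and Slc7a10 (-0.90).

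Fkbp5, which encodes a co-chaperone of steroid receptors, stood at 1.32, 1.33, 1.38 and 1.34 in mutants and 1.55, 1.57, 1.95 and 1.50 in wild types at 1 year. At 1 month it stood at 1.25, 1.32, 1.25 and 1.35 in mutants and 1.94 to 2.16 in wild types. As for Etnppl, the wild-type sample highest at 1 year was replicate 3 and the lowest was replicate 4. Per1, a repressor of the circadian clock, averaged 2.58 in mutants and 3.36 in wild types at 1 year and 2.32 in mutants and 3.55 in wild types at 1 month. Of the members, Chka (r = 0.70 over the arrays and 0.67 within groups) and Phospho1 (0.69 and -0.26) came nearest to Etnppl.

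**Figure D5:**
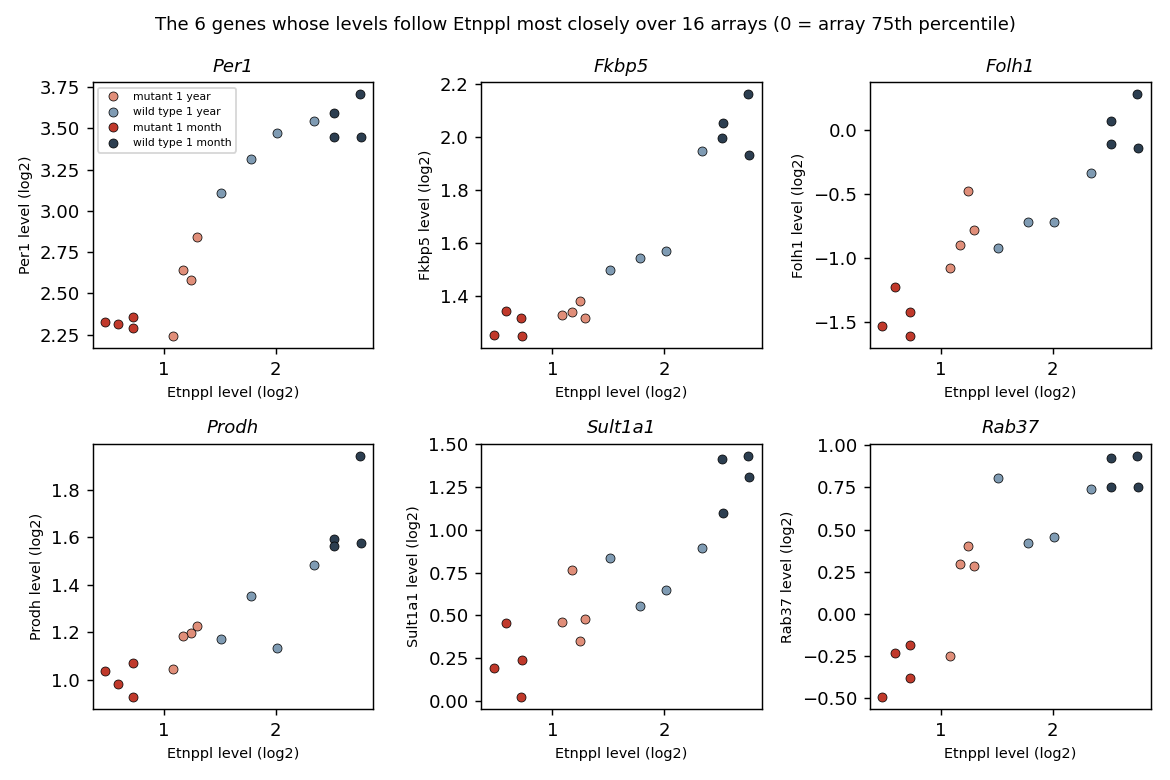
Level of each of the 6 genes most like Etnppl (vertical axes, log2) against the Etnppl level (horizontal axes, log2, 0 at the array's 75th percentile), 1 point per array, coloured by group. Along the Etnppl axis mutants at 1 month lie at the low end and wild types at 1 month at the high end, with both 1-year groups between them. On the vertical axes the group means keep this order, but single samples of different groups overlap. Per1 in mutant 1-year replicate 2 (2.24), for example, lies below all mutants at 1 month (2.29 to 2.36).

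A list of 15 genes that textbooks give as responsive to glucocorticoids, written with these likenesses known, was followed beside Etnppl. At 1 month 5 of the 15 were called lower in mutants and none higher, beside 0.689% of all genes called lower. Nothing is read from this count, because Per1, Fkbp5 and Sult1a1 are among the 6 genes most like Etnppl, and so low in mutants at 1 month by the way they were found. Those called included Per1 (-1.23 ± 0.12), Sult1a1, a sulfotransferase (-1.08 ± 0.12), and Fkbp5 (-0.74 ± 0.09). The others were Cebpd, a transcription factor (-1.21 ± 0.30), and Nfkbia, the inhibitor of NF-kB (-0.49 ± 0.11), with limma adjusted p of 0.0449 or less. At 1 year Per1 alone was called, by -0.78 ± 0.12. For Per1, Sult1a1 and Fkbp5, found by likeness to Etnppl over all 16 arrays, the values at both ages and the age changes are a description. With age, Cebpd, Mt2 and Sgk1 rose in mutants, by 1.81 ± 0.30, 0.62 ± 0.13 and 0.54 ± 0.14, while in wild types Sgk1 and Mt2 rose, by 0.95 ± 0.14 and 0.52 ± 0.13, and Sult1a1 and Fkbp5 fell, by 0.58 and 0.40. The labels give no time of day or handling for the samples, so the part of these in the difference was not tested. The count at 1 month was 3 to 6 when 1 array was left out, at 3 without mutant 1-month replicate 1 or wild-type 1-month replicate 2, 3 or 4, and within slides it was 0 on slide 1 and 1 on slide 2.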

How the data were processed

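Expression was measured on 16 single-colour Agilent arrays, 4 per group. The scanner files hold background-subtracted fluorescence intensity per spot made with Agilent Feature Extraction version 11.0.1.1, as stated per the file headers and the submitters' processing notes. A deposited matrix of log2 values from the authors was also read, 55681 of whose 55821 entries matched a probe. Its columns share 1 median of 6.88, its normalization is not given in the sources used here, and it served as an alternative.

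Here the processed intensity was log2 transformed and each array's 75th percentile subtracted, after 93 to 136 outlier spots per array were left out. Probes were named through the supplied RefSeq table (27235 of 55681 matched 1 gene). Probes well above background on at least 4 arrays were kept (49230), and a gene was led by the probe with the highest mean. One model with 4 group means was fitted to 19022 genes with limma 3.58.1 (R 4.3.3), tested on simulated data. Calls were made two-sided at adjusted p under 0.05 (Benjamini-Hochberg, all genes). Other probes of the members come from the same fit over all kept probes, and the precision is limited by 4 arrays per group.

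The members and lists were chosen with earlier results of these data known. Besides the 10 members, the genes named were called genes of the phospholipid and glucocorticoid lists (up to 6 per list and comparison), the 6 genes most like and the 3 least like Etnppl by Pearson's r, and the first markers of cell lists where they bear on a result. Genes singled out otherwise were chosen after their values were seen. The alternatives were normexp with offset 50, quantile normalization, the deposited matrix, the dim-probe filter, the mean of a gene's probes, slide as a block or alone, array row, a replicate block, the female-pattern arrays, each age alone, and leaving out each array. Normexp was planned on mean spot signals and was run on the median signals that the files hold. The probe-level fit and the glucocorticoid count were added after seeing the data.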

Additional observations from a re-analysis of the deposited data

Results flagged for a closer look

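The genotype difference at 1 year minus that at 1 month was 1.30 for Etnppl, 0.87 for Sult1a1 and 2.08 for Cebpd, so that the difference was less negative at 1 year for Etnppl and Sult1a1 and above 0 at 1 year for Cebpd. For Etnppl, chosen on part of these arrays, and for Sult1a1, found by its likeness to Etnppl over all of them, this is a description. Cebpd, from a list written with those likenesses known, had a limma adjusted p of 0.0477 for the difference itself.

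Among 64 groups of 4 samples (16 probes in 4 groups), 3 held 1 sample far from the other 3, and chance gives about 1 in 20. A second Chka probe (A_55_P2080956) stood at -3.50 in mutant 1-year replicate 2, where the other mutants of that age lay between -3.08 and -3.01. A second Pemt probe (A_55_P1970846) stood at -3.88 in the same sample, against -3.37 to -3.35 in the others. A second Chpt1 probe (A_52_P78770) stood at -2.52 in mutant 1-month replicate 1, against -2.68 to -2.66 in the others.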

How the results depend on the processing

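The 1-month difference of Etnppl, a description, was -2.05 to -1.92 over 30 alternatives. Its 1-year difference was lower in mutants in all 30 and called in 17. Besides the fits that leave out arrays, the 1-year call was lost with array row as a covariate (-0.69, limma adjusted p = 0.0689), with the replicate block (0.0827) and in a fit of the 8 arrays of that age (0.149). In the fit over all probes its adjusted p was 0.0491, Phospho1 at 1 month had 0.08 and Pcyt2 with age in wild types 0.0495. Phospho1 kept its 1-month call in 10 of 30 alternatives. The mean of a gene's probes reversed the age change of Etnk2 in wild types (-0.012, adjusted p = 0.963) and left 1 member called with age in mutants. Both are a consequence of probes that disagree. The cause of the other changes was not tested, and some of those fits also held fewer arrays.

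The counts of members called include Etnppl, which was chosen on the 1-month arrays. Members called at 1 month numbered 2. They were 1 with normexp, with no filter on dim probes, on slide 2, under the replicate block, without the female-pattern arrays, with the pattern as a covariate and with the 8 arrays of the age, and 0 on slide 1. At 1 year the 1 member called became 0 on either slide, with array row, under the replicate block, without the female-pattern arrays, with the pattern as a covariate and with the 8 arrays of the age. With age in mutants the 2 became 0 on either slide and without the female-pattern arrays, and 1 under the replicate block. With age in wild types the 3 became 0 on slide 1 and 1 on slide 2. For the difference between ages the 1 became 0 on either slide and without the female-pattern arrays. Leaving out 1 array gave 0 to 1 members at 1 year, 1 to 2 at 1 month, 1 to 2 with age in mutants, 1 to 4 with age in wild types and 1 for the difference.

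Genes called over the whole array, 165 at 1 year, 508 at 1 month, 1271 with age in mutants, 2353 with age in wild types and 77 for the difference, became 10, 1, 37, 188 and 1 on slide 1 and 13, 17, 162, 737 and 0 on slide 2. They became 79, 133 and 273 (the first 3) and 12 for the difference without the female-pattern arrays, 245 at 1 month with the pattern as a covariate, and 86 and 156 at the ages fitted alone. Leaving out 1 array gave 82 to 311, 225 to 924, 785 to 1919, 1517 to 2797 and 33 to 194. The counts of 924 at 1 month and 1919 with age in mutants came without mutant 1-month replicate 4. Replicate numbers did not pair the samples: of 16 same-numbered pairs 2 correlated above 0.1 (range -0.54 to 0.17) and 1 sample correlated best with its own number. The replicate block gave 96, 310 and 43 genes at 1 year, at 1 month and for the difference.

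Each group held 4 samples, 2 on each slide, so within-slide fits had little power, and the 3 female-pattern arrays were all mutants.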
